A study of Homo sapiens with 9 samples.

Results

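The cytosolic ribosomal protein genes were followed in RNA sequencing of HaCaT cells, an immortalized line of human keratinocytes, across 3 groups with 3 libraries each. Members were the genes whose symbol is RPL or RPS followed by a number and at most 1 further letter of A, L or X, together with RPLP0, RPLP1, RPLP2 and RPSA. The rule found 81 of the 61311 genes in the table and used no measured value. The control group (NC) was HaCaT cells without irradiation, the UVA group received UVA at 5 J/cm2, and the CT group was irradiated at that dose and then treated with CT, an extract made from the flowering plant Coreopsis tinctoria. All 3 groups were cultures of the same line, and since the labels do not say whether the libraries of a group come from different cultures, a p-value here covers no more than the spread among these libraries, which may be technical. The comparison of UVA with NC shows the response to irradiation, that of CT with UVA shows what the extract added to it, and that of CT with NC sets the treated irradiated cells against the starting level.

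A cytosolic ribosome joins a small subunit, which decodes the mRNA, to a large subunit, which makes the peptide bond, and each is built from ribosomal RNA and 1 copy of most of its proteins. The acidic stalk proteins RPLP0, RPLP1 and RPLP2 recruit the elongation factors. Ribosomal protein mRNAs are abundant, short and stable in dividing cells, and most begin with a C followed by a run of pyrimidines, the terminal oligopyrimidine (TOP) motif, through which mTORC1 and LARP1 set how strongly they are translated. Their output is therefore known to be set in large part by translation, which RNA sequencing does not measure. Poly(A) libraries also say nothing of ribosomal RNA itself.

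The start of a ribosomal protein mRNA carries its TOP motif, so 30 bases around the start that RefSeq lists (GRCh38.p14, 15 bases on each side) are shown for the 8 members that differed between CT and UVA and for RPL24 and RPSA, which differed between CT and NC. Capitals mark the C and pyrimidine run, which was searched as a C followed by at least 4 further pyrimidines, starting within 3 bases of the listed start.
RPS21 at chr20:62387088-62387117, plus strand: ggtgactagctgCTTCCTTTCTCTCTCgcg
RPS28 at chr19:8321481-8321510, plus strand: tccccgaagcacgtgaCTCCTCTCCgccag
RPL36 at chr19:5690280-5690309, plus strand: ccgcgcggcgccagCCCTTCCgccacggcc
RPL38 at chr17:74203663-74203692, plus strand: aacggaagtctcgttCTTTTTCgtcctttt
RPLP2 at chr11:809952-809981, plus strand: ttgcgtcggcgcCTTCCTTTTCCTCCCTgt
RPS25 at chr11:119018329-119018358, minus strand: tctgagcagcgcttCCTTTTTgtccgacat
RPL39 at chrX:119791616-119791645, minus strand: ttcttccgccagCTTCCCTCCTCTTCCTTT
RPS29 at chr14:49598696-49598725, minus strand: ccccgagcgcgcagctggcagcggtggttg
RPL24 at chr3:101686704-101686733, minus strand: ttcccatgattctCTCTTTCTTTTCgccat
RPSA at chr3:39406705-39406734, plus strand: tttcctgccgcctgtCTTTTCCgtgctacc
Of these 10 starts, only that of RPS29 held no such run. Only the start listed first for each gene was searched, so a run at another start, of RPS29 or any other gene, would be missed.

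Among the 64 members with a start in the RefSeq table, 47 (73.4%) held the run, against 13.1% of the 27305 listed starts of all genes. In the window from 250 bases before to 50 bases after the start, on both strands, CCGGAAG, the core bound by ETS family factors, was found for 22 members (34.4%, against 10.7% of all windows). AAGATGGC, a motif of YY1, was found for 6 members (9.38%, against 3.03%), and TATAAA for 6 members (9.38%, against 11.95%). The search used exact letters, so a match is a description of the sequence. The other 17 members, RPS2, RPL5 and RPL39L among them, were not matched in this table.

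Each library held between 16390289 and 21971215 counts, and 15154 genes passed the filter on low counts, 79 of the members among them. All 10 keratinocyte markers were measured. Their summed levels, scaled to library totals without TMM, were 5649 to 6526 CPM in NC, 4477 to 4925 CPM in UVA and 4589 to 4716 CPM in CT. All other CPM values are counts scaled to library size by TMM. Markers of fibroblasts summed to between 19 and 59 counts in a library, and those of immune cells to between 1 and 19. The summed keratinocyte markers were lower in the 6 irradiated libraries than in NC, and the part of this in the results was not tested.

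The 2 members that failed the filter are paralogs with restricted expression: RPL10L had no count in any library, and RPL3L, the paralog of RPL3 in heart and skeletal muscle, had between 0 and 4 counts. Between the other members, levels were compared per length of coding sequence, as CPM per coding kilobase. In NC, this level had a median of 1261 over the 79 tested members, and the lowest was 83.1 for RPS27L, a paralog of RPS27 known as a p53 target. RPL39L, the testis-rich paralog of RPL39, was next at 173, against 6075 for RPL39. The highest level, 9443, belonged to RPL41, which codes for the shortest member protein, of 25 residues. Most of these transcripts hold untranslated sequence beside a short coding region, so the per-length level of the shortest members is set high by this scale.

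As a whole, the ribosomal protein genes took shares of the counts that overlapped between the 3 groups. Their share of all counts was 5.90, 6.04 and 5.85% in the NC libraries, 5.88, 5.96 and 5.87% in the UVA libraries, and 5.88, 6.01 and 6.07% in the CT libraries. No group lay apart from the others. The means were 5.93 ± 0.10% in NC, 5.90 ± 0.05% in UVA and 5.99 ± 0.09% in CT (SD, n = 3). By an exact two-sided permutation test, p was 0.8 for UVA against NC, 0.3 for CT against UVA and 0.5 for CT against NC (0.8, 0.75 and 0.75 after adjustment over the 3 comparisons), where 3 libraries against 3 cannot give a p below 0.1. In bulk RNA, a change in the RNA per cell and a change in the makeup of the culture cannot be told apart, and a share says nothing of the total RNA.

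The balance of the subunits differed slightly between control and irradiated cells. The counts of small subunit genes divided by those of large subunit genes, with the stalk counted in the large subunit, were 0.562, 0.563 and 0.568 in NC, 0.549, 0.553 and 0.546 in UVA and 0.550, 0.549 and 0.547 in CT. Every irradiated library lay below every NC library, for UVA and for CT, at p = 0.1 in both exact permutation tests, the smallest p possible (0.15 after adjustment over the 3 comparisons). CT and UVA overlapped, at p = 0.9 by the exact permutation test. RPS2 and RPSA, 2 of the longest small subunit members, were also the 2 members called lower in CT than in NC. Without them, the mean ratio was 0.487 ± 0.004 in NC, 0.477 ± 0.002 in UVA and 0.483 ± 0.001 in CT (SD, n = 3). Leaving out 2 genes that were lowest in CT raises CT against the other groups, so its place between them is no separate result.

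**Figure D1:**
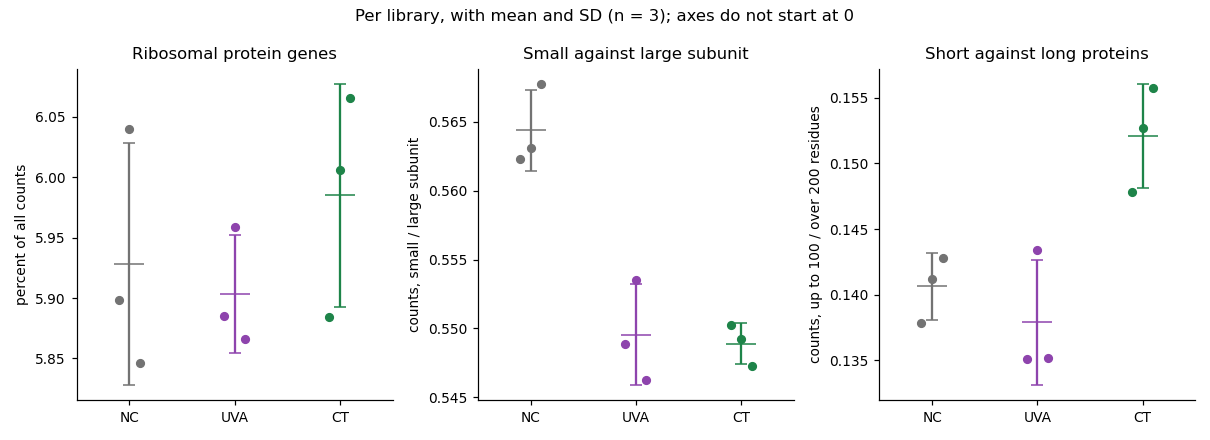
Per library, the share of all counts in the 81 cytosolic ribosomal protein genes (percent), the ratio of counts between small and large subunit genes, and the ratio between members coding for up to 100 and for over 200 residues. Points are libraries, and bars give the mean and SD of each group (n = 3). The axes do not start at 0. The share stays between 5.85 and 6.07% in all 9 libraries, the subunit ratio is lower in UVA and CT than in NC, and the short to long ratio is highest in CT.

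After UVA irradiation, hardly any ribosomal protein mRNA changed. None of the 79 tested members rose against NC at an adjusted p under 0.05, where 10.5% of all tested genes rose, and 3 fell, where 10.6% of all tested genes fell. Limited to genes whose average log2 CPM reached 6, 3 of 77 members passed in either direction, against 35.7% of 3678 genes. At an unadjusted p under 0.05, 4 members were higher and 6 lower. DESeq2 called 4 lower and limma-voom 3 lower, and neither called any higher. The median log2 fold change over the members was -0.02, and the median of its size was 0.04, against 0.16 over all tested genes and 0.10 over those with a log2 CPM of at least 6.

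The 3 members that fell were RPS21, RPS28 and RPL36, proteins of 83, 69 and 105 residues. RPS21 measured 124, 129 and 135 CPM in NC, 118, 115 and 112 CPM in UVA and 137, 149 and 141 CPM in CT. The UVA libraries lay below both other groups, and RPS21 (eS21, a small subunit protein, chr20:62387116-62388520, plus strand in GENCODE 29 on GRCh38) fell by 0.17 ± 0.05 (SE) on the log2 scale against NC, at an adjusted p of 0.0145 by edgeR's quasi-likelihood test. RPS28 measured 109.9, 114 and 114 CPM in NC, 106, 97.5 and 99.0 CPM in UVA and 110.4, 121 and 123 CPM in CT. RPS28 (eS28, which sits beside the mRNA exit of the small subunit, chr19:8321158-8323340, plus strand) was below NC in all 3 UVA libraries, at -0.16 ± 0.05 (adjusted p = 0.0275, edgeR). RPL36 measured 135, 150.1 and 137 CPM in NC, 127, 129 and 126 CPM in UVA and 140.1, 151 and 146 CPM in CT. RPL36 (eL36, a large subunit protein, chr19:5674947-5691876, plus strand) was also below NC in every UVA library, at -0.14 ± 0.05 (adjusted p = 0.0339, edgeR). These calls rested on single libraries: without NC 2 or without UVA 3, none of the 3 passed. Between 0 and 4 members passed when each library was left out in turn. With a correction for coding length and GC content, chosen after the data were seen, 8 members passed: RPL3 was higher, and RPL36A, RPLP0, RPS21, RPS28, RPS3A, RPS4X and RPSA were lower. The share of all tested genes called with this correction or without single libraries is not reported here, so these counts have no background beside them.

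The intervals show how small any other change was. For 75 of the 79 members the whole 95% interval of the UVA effect lay within a 1.2-fold change in either direction. The exceptions were RPS21, RPS28 and both low paralogs, RPS27L and RPL39L. RPS27L measured 22.2, 21.7 and 19.0 CPM in NC, 23.6, 25.7 and 22.3 CPM in UVA and 22.3, 21.97 and 24.2 CPM in CT. All UVA libraries exceeded all NC libraries for RPS27L, at 0.19 ± 0.09 on the log2 scale, with an adjusted p of 0.14 by edgeR, which missed the threshold. RPL39L measured 26.6, 26.1 and 26.8 CPM in NC, 29.4, 30.8 and 27.2 CPM in UVA and 32.3, 30.6 and 30.9 CPM in CT. RPL39L was likewise higher in each UVA library than in NC, at 0.13 ± 0.07 (adjusted p = 0.202, edgeR).

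Members with known roles outside or at the centre of the ribosome were among those with narrow intervals after UVA. RPL5 and RPL11, which bind MDM2 when ribosome assembly fails, were at 0.08 ± 0.04 and -0.02 ± 0.04 on the log2 scale (SE). RPS6, the target of the S6 kinases, was at -0.02 ± 0.04, and RPL3, which reaches to the peptidyl transferase centre, at 0.08 ± 0.03. RPLP0, often used as a reference gene in qPCR, was at -0.07 ± 0.03. None of these 5 passed the threshold, with adjusted p-values by edgeR from 0.0977 for RPL3 to 0.813 for RPL11. RPS19 and RPS14, whose loss causes forms of bone marrow failure, were at -0.04 ± 0.05 and 0.02 ± 0.04.

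**Figure D2:**
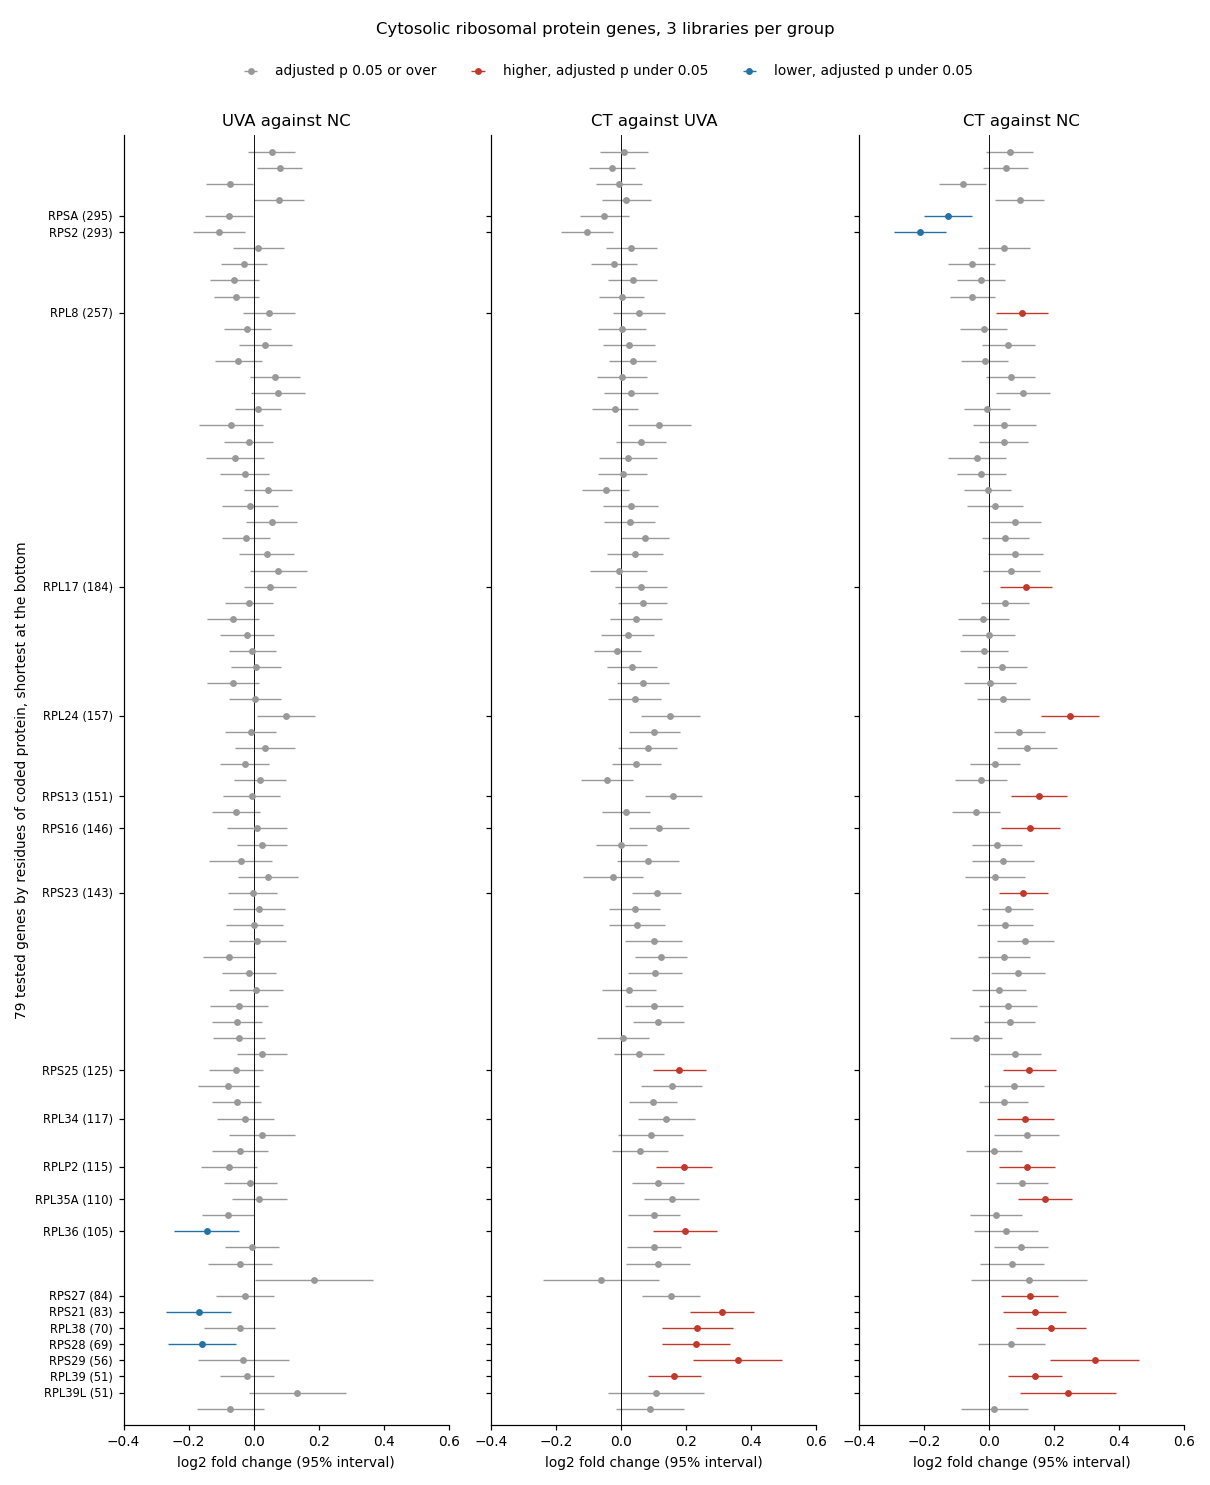
Log2 fold change with its 95% interval for the 79 tested cytosolic ribosomal protein genes in each of the 3 comparisons, ordered by the length of the coded protein, the shortest at the bottom. Names, with residues, are given for the genes that passed in at least 1 comparison. Red and blue mark genes that were higher or lower at an adjusted p under 0.05 by edgeR. The 3 blue points for UVA against NC are RPS21, RPS28 and RPL36, the 8 red points for CT against UVA lie among the short proteins, and CT against NC has 16 red points and 2 blue points.

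In CT-treated UVA-irradiated HaCaT cells, the mRNAs of a small set of short ribosomal proteins were higher than after UVA alone. Against UVA, 8 of 79 members were higher in CT, where 0.944% of all tested genes were higher, and none was lower, where 0.614% of all tested genes were lower. Limited to a log2 CPM of at least 6, 8 of 77 members passed, against 3.32% of genes. DESeq2 called 11 higher and limma-voom 7, and neither called any lower. At an unadjusted p under 0.05, 29 members were higher and 1, RPS2, was lower. The median log2 fold change was 0.06, and 73 of the 79 intervals lay within a 1.2-fold change in either direction.

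The largest difference was that of RPS29 (uS14, a zinc-binding protein of the small subunit head, chr14:49570984-49599164, minus strand). RPS29 measured 85.5, 98.4 and 91.5 CPM in NC, 95.6, 91.6 and 82.2 CPM in UVA and 106, 120.0 and 119 CPM in CT. Every CT library exceeded every library of the other groups, and NC and UVA overlapped. RPS29 was higher in CT than in UVA by 0.36 ± 0.07 (SE) on the log2 scale, a rise of 28.1%, at an adjusted p of 0.00749 by edgeR. RPS21 followed at 0.31 ± 0.05, a rise of 23.9%, at an adjusted p of 0.000685. All CT libraries for RPS21 lay above all NC libraries as well. RPS21 passed in each of the 9 fits that left out a single library.

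RPL38 (eL38, whose loss in mice alters the translation of Hox mRNAs, chr17:74203582-74210655, plus strand) showed the next largest rise. RPL38 measured 164, 165 and 158 CPM in NC, 149, 170.0 and 154 CPM in UVA and 173, 186 and 196 CPM in CT. The lowest CT library lay just above the highest UVA library, and the fold change was 0.23 ± 0.05 at an adjusted p of 0.0238 (edgeR). RPS28 was higher in each CT library than in any UVA library, at 0.23 ± 0.05 (adjusted p = 0.0198, edgeR), and RPL36 at 0.20 ± 0.05 (adjusted p = 0.0343). For RPS28 and RPL36 the CT and NC ranges overlapped, so these 2 were separated from UVA alone. The comparisons of UVA with NC and of CT with UVA share the 3 UVA libraries, so low values there lower the first and raise the second.

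The stalk protein RPLP2 (chr11:809647-812880, plus strand) also rose. RPLP2 measured 332, 340.0 and 329 CPM in NC, 325, 307 and 317 CPM in UVA and 344, 381 and 360.3 CPM in CT. All CT values lay above all others, and the fold change against UVA was 0.19 ± 0.04 at an adjusted p of 0.0181 (edgeR). Its stalk partner RPLP1 was at 0.11 ± 0.04 (adjusted p = 0.179), and RPLP0, which anchors both, at -0.01 ± 0.03 (adjusted p = 0.958). RPS25 measured 402, 428 and 417 CPM in NC, 395, 407 and 399 CPM in UVA and 434, 459.6 and 466 CPM in CT. RPS25 (eS25, needed by several viral internal ribosome entry sites, chr11:119015712-119018691, minus strand) was highest in the CT libraries, without overlap, at 0.18 ± 0.04 (adjusted p = 0.0211, edgeR). RPL39 measured 905, 932 and 952 CPM in NC, 879, 950.2 and 919 CPM in UVA and 991, 1019 and 1067 CPM in CT. RPL39 (eL39, a lining of the tunnel through which the new peptide leaves, chrX:119786504-119791643, minus strand) completed the set, with CT above UVA throughout, at 0.16 ± 0.04 (adjusted p = 0.0377, edgeR).

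Only RPS21 kept its call without each library in turn. The count of members called was 1 without CT 2, 2 without UVA 2, without UVA 3 or without CT 3, 4 without UVA 1 and 14 without CT 1. Without a filter on low counts it was 13. The shares of all tested genes called in these fits are not reported here, so the swing cannot be set against that of all genes. CT 3 also had the smallest TMM factor, 0.976 against 0.998 to 1.01 in the other libraries, and the members in it lay at a median of 0.08 above their own mean on the log2 CPM scale, against -0.03 to 0.03 in the other 8 libraries. The part of this library's composition in the result was not tested beyond the fit without it.

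**Figure D3:**
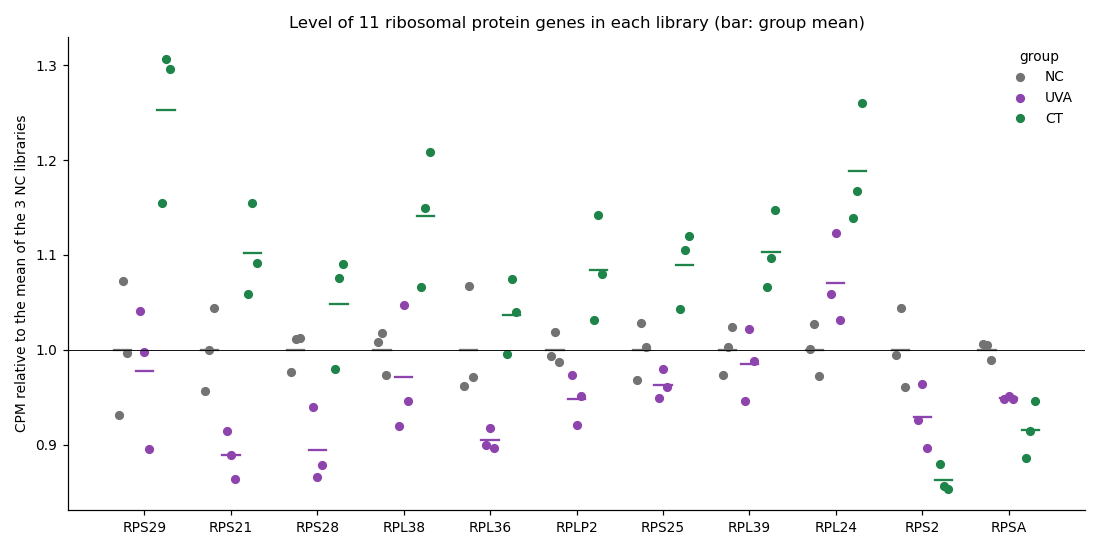
CPM of 11 ribosomal protein genes in each of the 9 libraries, divided by the mean of the 3 NC libraries. Points are libraries and horizontal bars are group means. For the first 8 genes the CT libraries lie above the UVA libraries. RPL24 is ordered NC, UVA and CT, and RPS2 and RPSA are lowest in CT.

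The difference between CT and UVA was larger for members with shorter proteins. The 8 members called coded for 51 to 125 residues, and the median of the 79 tested members was 151. Across the 79 members, the log2 fold change of CT against UVA and the coding length had a Pearson r of -0.63 and a Spearman rho of -0.68, where the points share the same 6 libraries and genes are no independent replicates. Among the 3546 other genes with a known coding length and an average log2 CPM of at least 6, r was -0.18 and rho -0.20. In CT against NC the members had r = -0.51 and rho = -0.50, and in UVA against NC r = 0.18 and rho = 0.22.

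Members coding for up to 100 residues had a median log2 fold change of 0.15 between CT and UVA (11 genes, 5 of them higher). Those with 101 to 150 residues had 0.10 (27 genes, 3 higher), those with 151 to 200 had 0.05 (19 genes, none higher), and those with 201 to 300 had 0.02 (19 genes, none higher). In the same bins, the other tested genes, here without a limit on log2 CPM, had medians of 0.06, 0.05, 0.04 and 0.03. Both sets therefore fell with length, and the members spanned the wider range.

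The ratio of counts between members of up to 100 and of over 200 residues was 0.138, 0.141 and 0.143 in NC, 0.135, 0.143 and 0.135 in UVA and 0.148, 0.153 and 0.156 in CT. All CT libraries lay above all others, at p = 0.1 against either group by exact permutation, the smallest possible (0.15 after adjustment over the 3 comparisons), and NC and UVA overlapped, at p = 0.4 by exact permutation.

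Coding length and GC content were therefore corrected per library with a smooth fit over the genes that are not members, a choice made after the data were seen. With it, 2 members remained higher in CT than in UVA, RPS21 at 0.24 ± 0.04 (adjusted p = 0.00481, edgeR) and RPS29 at 0.28 ± 0.06 (adjusted p = 0.0206), and the median over the members was 0.01. The share of all tested genes called with the correction is not reported here. The correlation with coding length in the corrected values was r = -0.50 and rho = -0.57. Library preparation can favour short or long transcripts unequally, and its part in the length pattern was not tested beyond this correction.

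**Figure D4:**
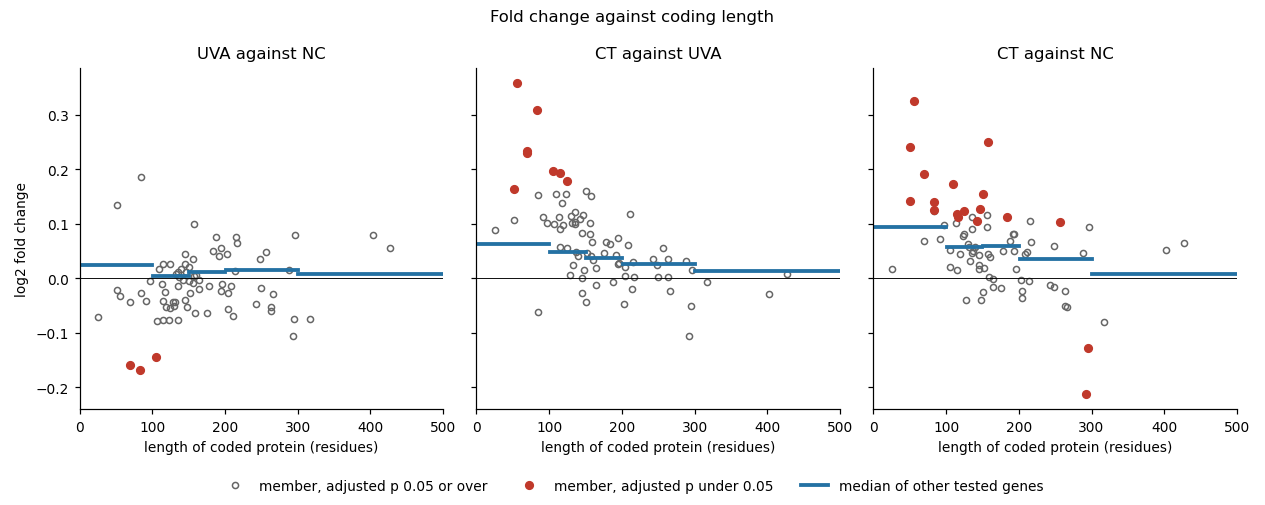
Log2 fold change of the 79 tested ribosomal protein genes against the length of the coded protein in residues, for each comparison. Filled points passed an adjusted p under 0.05, and horizontal lines give the median of the other tested genes in each length bin up to 500 residues. In CT against UVA the highest member is RPS29, at 0.36. The member medians, which are not drawn, fall from 0.15 at up to 100 residues to 0.02 at 201 to 300 residues. Those of other genes fall from 0.06 to 0.03 over the same bins.

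Set against control cells, CT-treated irradiated cells had 16 members higher and 2 lower, where 15.7% of all tested genes were higher and 14.2% lower. Limited to a log2 CPM of at least 6, 17 of 77 members passed, against 48.3% of genes. The median log2 fold change was 0.05, and no member passed a 2-fold change in this or either other comparison. With the correction for coding length and GC content the split was 4 higher and 7 lower, so the direction of the calls depended on that setting. The higher ones were then RPL24, RPL35A, RPLP2 and RPS29, and the lower ones RPL22, RPL27A, RPL7A, RPLP0, RPS2, RPS4X and RPSA. How many of all tested genes were called with the correction is not reported here.

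RPL24 (eL24, which forms a bridge between the subunits, chr3:101681091-101686782, minus strand) stood apart from the short members. RPL24 measured 711, 730.1 and 691 CPM in NC, 752, 798 and 733 CPM in UVA and 809, 829.8 and 896 CPM in CT. The 3 groups did not overlap and were ordered NC, UVA and CT. RPL24 was higher in CT than in NC by 0.25 ± 0.04 (SE), at an adjusted p of 0.000206 by edgeR, and by 0.19 ± 0.04 (adjusted p = 0.000795) with the length and GC correction. Neither of its steps passed alone, UVA against NC at 0.10 ± 0.04 (adjusted p = 0.113) and CT against UVA at 0.15 ± 0.04 (adjusted p = 0.0863).

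RPL35A measured 585, 603 and 589 CPM in NC, 602, 598 and 598 CPM in UVA and 626, 673 and 704 CPM in CT. RPL35A (eL33, a gene of Diamond-Blackfan anaemia, chr3:197949980-197956610, plus strand) was highest in each CT library, at 0.17 ± 0.04 against NC (adjusted p = 0.00297, edgeR). RPS13 measured 409, 409 and 421 CPM in NC, 402, 416 and 416 CPM in UVA and 429.7, 468 and 481 CPM in CT. RPS13 (uS15, at the interface of the subunits, chr11:17074389-17077787, minus strand) was at 0.15 ± 0.04 (adjusted p = 0.00817, edgeR), with NC and UVA overlapping. RPS29 was at 0.33 ± 0.07 (adjusted p = 0.00121, edgeR), RPL39L at 0.24 ± 0.07 (adjusted p = 0.0134) and RPL38 at 0.19 ± 0.05 (adjusted p = 0.00894). The other 10 higher members, RPL39, RPS21, RPS16, RPS27, RPS25, RPLP2, RPL17, RPL34, RPS23 and RPL8, lay between 0.10 and 0.14. For RPL34 and RPL8, which were closest to the threshold, the CT and NC ranges overlapped.

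The 2 members that fell are long proteins of the small subunit. RPS2 measured 2139, 2246 and 2066 CPM in NC, 1991, 2073 and 1927 CPM in UVA and 1892, 1840.2 and 1835 CPM in CT. RPS2 (uS5, at the mRNA entry channel, chr16:1962052-1964860, minus strand) was lowest in the 3 CT libraries, which lay below all UVA libraries, while UVA and NC overlapped. RPS2 was lower in CT than in NC, at -0.21 ± 0.04 on the log2 scale (adjusted p = 0.000329, edgeR). Its pseudogenes held 10.8% of the counts they shared with it, the largest such share of any member, and summing them with RPS2 gave -0.21 (adjusted p = 0.000353). RPSA measured 787, 786 and 774 CPM in NC, 742, 745 and 742 CPM in UVA and 694, 715 and 740.0 CPM in CT. RPSA (uS2, also known as the laminin receptor, chr3:39406689-39412542, plus strand) was ordered NC, UVA and CT without overlap. RPSA was lower in CT than in NC, at -0.13 ± 0.04 (adjusted p = 0.00993, edgeR). The length and GC correction gave -0.23 for RPS2 and -0.18 for RPSA.

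The calls for RPS2, RPSA, RPL24, RPL35A, RPL39, RPS13 and RPS29 against NC held without each library in turn. Over those 9 fits the count of members called ranged from 9 to 26. It was 9 without NC 1, 11 without NC 3 and 10 without CT 2 or without CT 3. With a fit of the compared groups alone it was 12, and with limma-voom 21. No shares of all tested genes called in these fits are reported here.

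Other well-known members did not pass in the edgeR fit over all 9 libraries. Between CT and NC, RPS6 was at -0.02 ± 0.03, RPL5 at 0.09 ± 0.04, RPL11 at 0.05 ± 0.04, RPL3 at 0.05 ± 0.03 and RPLP0 at -0.08 ± 0.03 on the log2 scale (SE). RPL10 (uL16, which joins late in large subunit assembly) was at -0.01 ± 0.03, RPL26 at 0.02 ± 0.04, RPL13A at -0.00 ± 0.03, RPS3 at -0.01 ± 0.03 and RPS4X at -0.05 ± 0.03. With the correction, RPLP0 at -0.12 (adjusted p = 0.00347, edgeR) and RPS4X at -0.11 (adjusted p = 0.00810) were among the 7 that were lower. RPL41, whose protein is the shortest, was at 0.02 ± 0.05 against NC and at 0.09 ± 0.05 against UVA (adjusted p = 0.468, edgeR), so not every short member passed. RPS27A, made as a fusion with ubiquitin, was at 0.09 ± 0.04 against NC (adjusted p = 0.0676, edgeR). Against NC, RPL5 and RPS27A passed without CT 1, RPLP0 passed without CT 3 and with library size scaling, and RPL5 and RPLP0 passed by limma-voom.

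Members that differed were found with and without the pyrimidine run at the start listed first for them, and their other starts were not searched. Of the 47 tested members with the pyrimidine run, 7 were higher in CT than in UVA, against 1 of 16 without it and none of 16 without a listed start, and the median log2 fold changes were 0.07, 0.04 and 0.06. For CT against NC the counts were 12, 2 and 2 higher, with medians of 0.05, 0.06 and 0.06. For UVA against NC all 3 lower members held the run, and the medians were -0.03, 0.01 and -0.01. Among all tested genes, 0.944% were higher in CT against UVA, 15.7% higher in CT against NC and 10.6% lower in UVA against NC.

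The genes that build and use the ribosome were counted next, from lists written with earlier results of these data known. Of 105 tested genes for ribosome assembly and rRNA processing, 54 were higher in UVA than in NC and none lower, and 86 were higher in CT than in NC with 1 lower. Their median log2 fold changes were 0.20 and 0.32. The members had none higher and 16 of 79 higher in the same comparisons, which share the 3 NC libraries, with medians of -0.02 and 0.05. In CT against UVA, none of the assembly genes was higher by edgeR and 2 were lower, while 8 members were higher. The median log2 fold change in that comparison was nevertheless larger for the assembly genes, at 0.10, than for the members, at 0.06. At an unadjusted p under 0.05, 21 assembly genes were higher and 3 lower in that comparison, DESeq2 called 2 higher and 2 lower, and 6 were higher without CT 1. With single libraries left out, 31 to 63 of the assembly genes were higher in UVA against NC, the lowest without UVA 2 and without UVA 3, and 69 to 89 in CT against NC.

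EBNA1BP2, an assembly factor of the large subunit, had the smallest adjusted p of that list in both comparisons with NC, at 0.34 ± 0.05 for UVA (adjusted p = 0.000133, edgeR) and 0.44 ± 0.05 for CT (adjusted p = 5.02e-06). WDR74, which acts in the maturation of the large subunit, was at 0.61 ± 0.07 in CT (adjusted p = 6.41e-06). NOB1, the nuclease that trims the rRNA of the small subunit, was at 0.48 ± 0.06 (adjusted p = 6.58e-06).

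Of 35 genes listed for RNA polymerase I and III, 13 were higher and 2 lower in UVA against NC, and 18 higher and 2 lower in CT against NC. These are subunits together with transcription factors of the polymerases, and the factors UBTF and TAF1D were among those higher in both comparisons. Of 38 translation initiation factors, 20 and then 22 were higher and none lower, with EIF1, which guards start codon choice, at 0.33 ± 0.04 in UVA (adjusted p = 1.09e-05, edgeR). Of 14 genes listed for translation elongation, 4 were higher in either comparison. That list is not limited to elongation factors: DPH2 and DPH5 were among the 4 in UVA, and DPH2 among the 4 in CT. Of 15 host genes of small nucleolar RNAs, 7 were higher in UVA and 9 in CT against NC, with 2 lower in CT. Of 22 other mRNAs with a TOP motif, 9 were higher in UVA and 10 in CT, none lower. In CT against UVA, these 5 lists held 1 call in all by edgeR and by DESeq2, a higher initiation factor, where 1 to 7 genes of each list were higher at an unadjusted p under 0.05. Without CT 1, 4 initiation factors were higher in that comparison. Without NC 3, the counts higher in UVA against NC fell to 1 gene of the elongation list, 4 host genes and 5 other TOP mRNAs. The count of the elongation list also fell to 2 without NC 2 and to 1 without UVA 3, and the host genes to 4 without UVA 2. Without CT 2, 5 host genes were higher in CT against NC. Of all tested genes, 10.5% were higher and 10.6% lower in UVA against NC, and 15.7% and 14.2% in CT against NC.

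Of the 33 tested genes for mTORC1, the S6 kinases and regulators of TOP mRNAs, 6 were higher and 3 lower in UVA, 8 higher and 5 lower in CT against NC, and 1 lower in CT against UVA, where DESeq2 called 1 higher and 2 lower. The lower ones became 1 in UVA against NC without UVA 2, and 3 in CT against NC without NC 2 and without CT 3. Among all tested genes, 10.5% were higher and 10.6% lower in UVA against NC, and 15.7% and 14.2% in CT against NC. In CT against UVA these shares were 0.944% and 0.614%. LARP1, the TOP mRNA binding protein, was at 397, 367 and 339 CPM in NC, 431, 449 and 454 CPM in UVA and 452, 465 and 484 CPM in CT. It was higher than NC in every irradiated library, by 0.27 ± 0.05 in UVA (adjusted p = 0.000593, edgeR) and by 0.35 ± 0.05 in CT (adjusted p = 3.79e-05). MYC, an activator of ribosome synthesis genes, was at 147, 131 and 117 CPM in NC, 188, 188 and 192 CPM in UVA and 208, 227 and 256 CPM in CT, with no overlap between groups. MYC was higher by 0.52 ± 0.09 in UVA (adjusted p = 0.00323, edgeR) and by 0.81 ± 0.09 in CT against NC (adjusted p = 0.000167), and was at 0.28 ± 0.09 in CT against UVA (adjusted p = 0.192). That last difference of MYC passed in 5 of 20 alternatives, among them DESeq2 (adjusted p = 0.00838), with adjusted p-values from 1.76e-06 without a filter on low counts to 0.407 without UVA 2 (edgeR). Of the 37 genes for ribosome stalling, quality control and ribotoxic stress, 6 were higher and 1 lower in UVA, and 10 higher and 1 lower in CT against NC, with none called in CT against UVA by edgeR or DESeq2 (at an unadjusted p under 0.05, 7 were higher and 1 lower).

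Close relatives of the members outside the name rule were also measured. RPL22L1, the paralog of RPL22, was at 160.2, 157 and 147 CPM in NC, 185, 206 and 197 CPM in UVA and 203, 217 and 234 CPM in CT. RPL22L1 was higher than NC by 0.34 ± 0.05 in UVA (adjusted p = 0.000216, edgeR) and by 0.49 ± 0.05 in CT (adjusted p = 2.53e-06), while RPL22 itself was at -0.04 ± 0.04 and -0.04 ± 0.04 (adjusted p = 0.462 and 0.478). RPL7L1, which acts in assembly, was higher in CT than in NC by 0.23 ± 0.06 (adjusted p = 0.00700, edgeR). FAU, which codes for RPS30 fused to a ubiquitin-like protein, was at 0.13 ± 0.04 in CT against UVA (adjusted p = 0.191, edgeR), and RACK1, on the head of the small subunit, was at 0.02 ± 0.04 (adjusted p = 0.898).

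Mitochondrial ribosomal proteins, which serve a separate ribosome, took 0.401 ± 0.009% of counts in NC, 0.419 ± 0.004% in UVA and 0.441 ± 0.014% in CT (SD, n = 3), with no overlap between groups at p = 0.1 in each exact permutation test, the smallest possible. Of 78 tested, 6 were higher and 2 lower in UVA against NC, where 10.5% and 10.6% of all tested genes were. In CT against NC 26 were higher, where 15.7% of all tested genes were. In CT against UVA 4 were higher, where 0.944% of all tested genes were. The 4 became 0 without any 1 of UVA 1, UVA 2, UVA 3, CT 2 or CT 3, and 8 without CT 1. In CT against NC, 17 to 33 were higher with single libraries left out, the lowest without CT 3. The shares of the cytosolic members overlapped in the same comparisons.

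**Figure D5:**
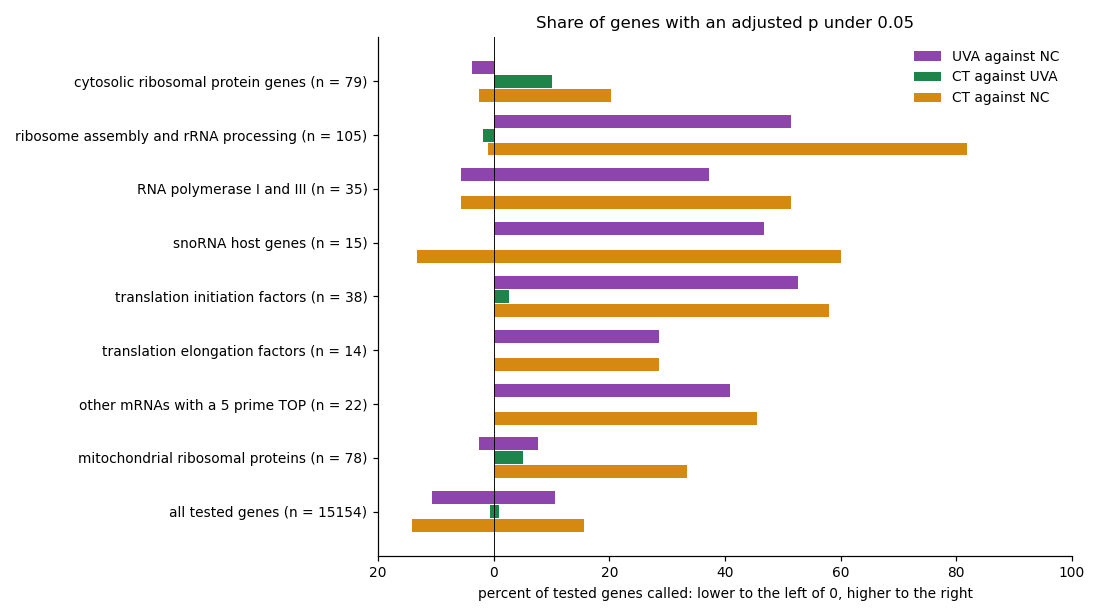
Percent of the tested genes of each list with an adjusted p under 0.05 by edgeR, higher to the right of 0 and lower to the left, for the 3 comparisons. The number tested is given beside each list. Ribosome assembly genes reach 54 of 105 higher in UVA against NC and 86 of 105 in CT against NC, where the cytosolic ribosomal protein genes have 0 and 16 of 79.

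The replicates of the members were close. Their median biological coefficient of variation in edgeR was 0.0392, against 0.0696 over all tested genes and 0.0418 over those with a log2 CPM of at least 6. Counts in pairs of libraries of 1 group nevertheless differed beyond sampling noise, with chi-square values over the members of 4.09 to 16.4 times their degrees of freedom. Precision was therefore limited by the libraries, not by depth, at a median of 644 CPM per member in NC. Reads of near-identical copies could be split between rows: 435 of the 1587 rows of ribosomal protein pseudogenes held a count, with 0.036 to 0.041% of all counts, and summing them with their parent genes gave 4, 8 and 18 members called in UVA against NC, CT against UVA and CT against NC.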

How the data were processed

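RNA of HaCaT cells was sequenced from 3 groups (NC, UVA and CT) with 3 libraries each. According to the methods and labels, oligo(dT) beads were used to capture mRNA, which was sequenced on an Illumina NovaSeq instrument. Tools named in the submitters' processing notes are fastp 0.23.2 and bcl2fastq, and the build is GRCh38. The aligner, counter, annotation and strandedness were not given in the sources used here, so reads of overlapping genes on opposite strands may not be separated. The authors deposited whole-number counts per gene, not normalized, and each of the 9 columns was assigned by its label, with totals of 16390289 to 21971215 counts.

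Genes were filtered with edgeR's filterByExpr, scaled by TMM and tested with the quasi-likelihood F test (robust) over all 9 libraries, with Benjamini-Hochberg adjustment over 15154 genes and an adjusted p under 0.05. Each SE was taken as the size of the log2 fold change over the root of its F statistic. CPM were scaled by TMM, except in the marker sums, and log2 CPM used a prior count of 2. Single values per library were compared by exact permutation. Software was edgeR 4.0.16, DESeq2 1.42.0 and limma 3.58.1 under R 4.3.3, and the steps were tested on simulated counts. Gene positions, coding lengths and GC content came from GENCODE 29 (GRCh38), and start sequences from RefSeq (GRCh38.p14). The length and GC correction used a loess span of 0.3.

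The members and lists were chosen with earlier results of these data known. Members were named if called, or if paralogs or well-known members, with at most 12 rises and 12 falls in a comparison. Other genes were named from the 3 smallest adjusted p-values of a list, together with FAU, RACK1, MYC, MTOR and LARP1. Some genes that meet the rule are not reported here. Alternatives were DESeq2, limma-voom, RLE or library size scaling, TMM without the members, no filter or a minimum of 10 counts per library, a fit without the third group, a replicate block, leaving out each library, and members summed with pseudogenes. Same-numbered libraries were not treated as pairs. MTOR was at -0.07 ± 0.05 in UVA against NC (adjusted p = 0.379, edgeR). Of 23 mitochondrially encoded genes, 2 were tested and none was called. Markers of melanocytes summed to 79 to 137 counts and those of endothelial cells to 123 to 170 counts in a library. The CT dose is given in the study's methods and not in the labels.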

Additional observations from a re-analysis of the deposited data

How the results depend on the processing

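No called log2 fold change of a named gene changed sign under an alternative. The members called in CT against UVA became 13 without a filter on low counts. With the coding length and GC correction, chosen after the data were seen, the members called became 8 in UVA against NC, 2 in CT against UVA and 11 in CT against NC, and their median log2 fold changes 0.010 in CT against UVA and 0.0057 in CT against NC. With single libraries left out, the members called ranged from 0 to 4 in UVA against NC, from 1 to 14 in CT against UVA and from 9 to 26 in CT against NC. Their medians over the same fits ranged from -0.02 to -0.00 in UVA against NC, from 0.03 to 0.08 in CT against UVA and from 0.04 to 0.08 in CT against NC, and the difference in the share of counts, which passed no test, from -0.07 to 0.03, from 0.04 to 0.13 and from 0.02 to 0.11 percentage points. The cause of these shifts was not tested, and the shares of all tested genes called under these alternatives are not reported here. The other alternatives, apart from that correction, gave 3 to 4, 7 to 13 and 12 to 21 members called. Libraries of the same number deviated with correlations of -0.05 to 0.03, against -0.06 to 0.06 for different numbers, so the number was not taken as a pairing, and the replicate block gave 4, 7 and 15 members called. For named genes, changes of call were counted once for each gene, comparison and setting, so a gene can be counted many times. Under the alternatives other than leaving out a library, a call was lost 45 times and gained 13 times. With a library left out, a call was lost 86 times and gained 5 times. The design of 3 libraries a group limits the precision, since no permutation p can go below 0.1.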
